A study of Homo sapiens with 6 samples.

Results

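Ribosome production in HOS cells was examined through 42 genes, chosen by symbol from the 16376 genes of the deposited table and all present in it. They encode subunits and factors of RNA polymerase I, proteins of the nucleolus, and assembly factors of the small and the large ribosomal subunit. HOS is a human osteosarcoma cell line, labelled as wild type. The tested cells had received Agrimol B, a phloroglucinol compound of the agrimony plant, for 24 h, and the control cells are labelled as having had no treatment. Each group had 3 libraries, made from Trizol RNA with a stranded mRNA kit. Neither the dose nor a solvent is stated in the labels used here. Nothing in them says that libraries of a group are separate cultures, so the spread behind the p-values may be technical.

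Ribosomes are built in the nucleolus. RNA polymerase I transcribes the ribosomal DNA into a long precursor RNA, which small nucleolar ribonucleoproteins (snoRNPs) modify and a large assembly called the small subunit processome begins to cut and fold. The precursors of the small (40S) and the large (60S) subunit then mature separately, each with its own set of helicases, GTPases and scaffold proteins. Tumour cells are known for prominent nucleoli and for high output of this pathway. Only mRNAs were measured, and ribosomal RNA itself was not analysed here.

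The 6 libraries held between 11993 and 12134 genes at 1 FPKM or more (FPKM, fragments counted per gene, normalised to transcript length and library size). Correlations of log2(FPKM + 1) were 0.986 to 0.988 within groups and 0.947 to 0.950 between groups. The number of reads behind a value is unknown. The step of the lowest values gave depths of 1.00, 1.19 and 1.16 in Agrimol B libraries and 1, 0.990 and 1.04 in control libraries, relative to the first control library. All 6 mesenchymal and osteoblast markers were present, but 5 of them fell with Agrimol B (VIM, COL1A1, COL1A2, SPARC and ALPL), and RUNX2 did not pass. Their summed level was 1005 to 1061 FPKM in Agrimol B libraries and 1455 to 1545 FPKM in control libraries, and COL1A2 averaged 25.9 ± 2.04 FPKM with Agrimol B and 70.6 ± 3.13 FPKM in control cells (SD, n = 3 each). Of 3 epithelial markers, EPCAM stood between 12.8 and 14.7 FPKM and CDH1 at 0.439 FPKM or less. KRT19 stood at 0, 3.17 and 2.68 FPKM with Agrimol B and 0, 0.0357 and 0.209 FPKM in control cells. The 2 haematopoietic markers (PTPRC, CD74) and the 2 endothelial ones (PECAM1, CDH5) stayed at 0.410 FPKM or less. The part of these shifts in the results on ribosome production was not tested.

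Expression of the pathway did not move as a block. Of the 42 genes, 17 rose and 8 fell with Agrimol B at an adjusted p under 0.05 (limma, Benjamini-Hochberg over all 12143 genes tested), and 17 did not pass. All 42 passed the filter of a mean of 1 FPKM. Of all tested genes, 52% were called, 30.6% higher and 21.4% lower, against 59.5%, 40.5% and 19.0% of the 42. These shares lie near the background. The median log2 difference (Agrimol B minus control, on log2(FPKM + 1)) was 0.02 over the 42 genes and 0.07 over all tested genes. It turned to -0.0452 with median-ratio scaling and -0.0103 with quantile normalization, which put the median of all tested genes at 0.0060 and 0.0072. Leaving out 1 library moved the members' median between 0.0079 (without control replicate 2) and 0.0664 (without control replicate 1). The split depended on scaling. With median-ratio scaling 12 of the 42 rose and 13 fell, against 25.4% and 25.9% of all tested genes. With quantile normalization 13 rose and 9 fell, against 25.5% and 25.4% of all tested genes. Under each rescaling 20 of the 25 calls held, and none changed sign. Median-ratio scaling moved these genes by a similar amount, smaller than any called difference. It could therefore reverse none of the 25, and nothing is read from the kept signs there.

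In 39 of the 42 genes (92.9%) the log2 difference was under 0.5 in size, against 76.1% of all tested genes. The median level was 34.8 FPKM over the 42 genes and 11.1 FPKM over all tested genes. No background of like level was drawn, so small differences are not read as a trait of the 42. Called changes of at least 2-fold, taken here on log2(FPKM + 1), were seen in 0 of the 42, against 4.04% of all tested genes. This scale understates changes of low genes. The largest rise was that of UTP6, 1.82-fold, and the largest fall that of UTP20, 1.54-fold. The groups did not overlap in 27 genes, 17 higher and 10 lower with Agrimol B, against 62.2% of all tested genes, 36.2% higher and 26% lower. Calls that held under all 13 alternative settings numbered 16, with 11 rises and 5 falls. The rises were those of NOP58, DKC1, NOLC1, UTP6, UTP3, RRP9, BMS1, RRP12, PES1, POLR1B and RRN3, and the falls those of UTP20, BOP1, NOP16, POLR1E and UBTF. Of the 8882 genes that entered every fit, 40.1% held likewise, 23.4% higher and 16.7% lower, against 16 of 41 members in every fit (39.0%). The remaining member, RRP8, is below the stricter filter.

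**Figure D1:**
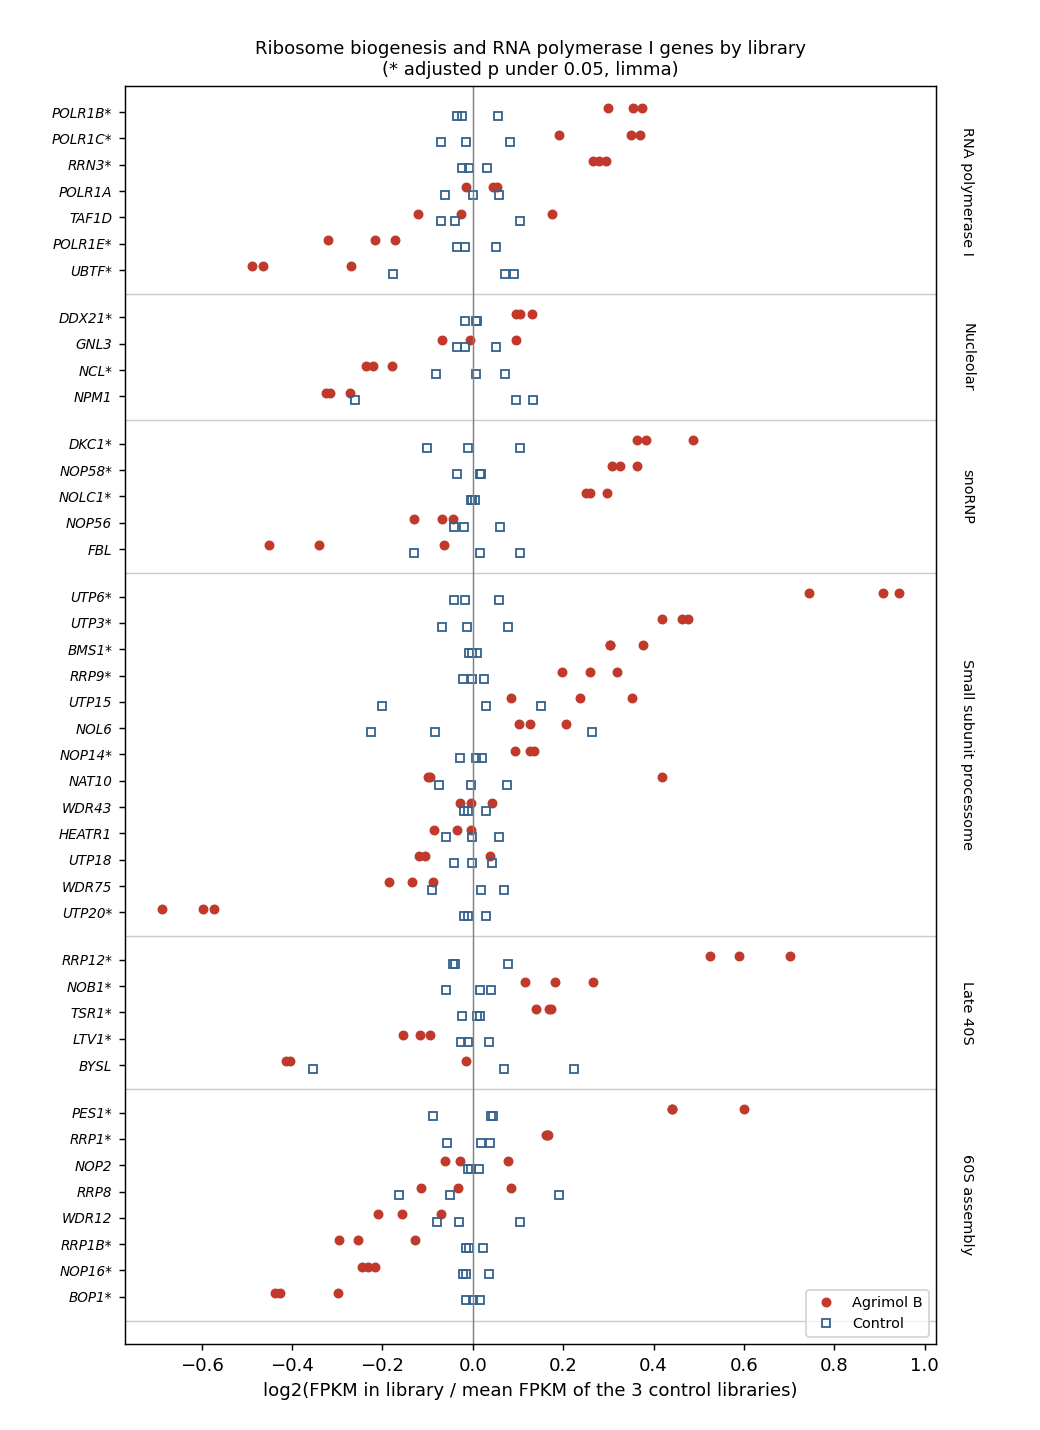
Each row is one gene, grouped by role, with the 3 Agrimol B libraries (filled circles) and the 3 control libraries (open squares) on a log2 scale relative to the mean FPKM of the control libraries. UTP6, RRP12 and PES1 lie right of every control point and UTP20, BOP1 and UBTF left of every one, while GNL3, WDR43 and NOP2 overlap.

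**Figure D2:**
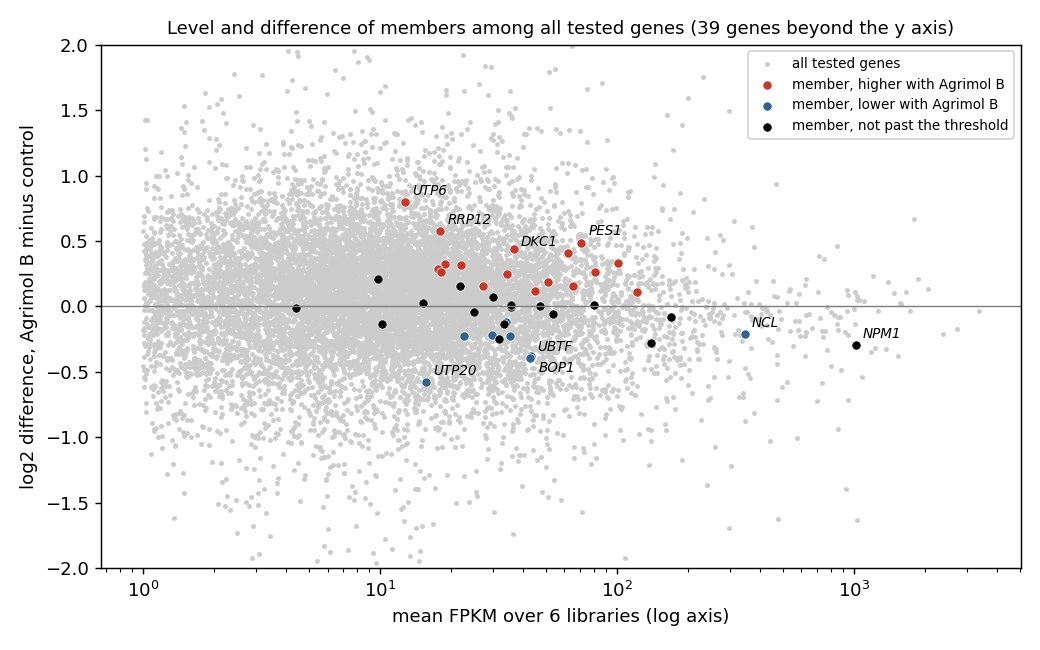
Mean FPKM over the 6 libraries (log axis) against the log2 difference (Agrimol B minus control) for all 12143 tested genes (grey) and the 42 members (coloured by call). The members reach from 4.41 FPKM (RRP8) to 1018 FPKM (NPM1) and stay within the band of the other genes.

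A feature that the choice of genes did not use is the E-box CACGTG, the sequence bound by MYC with its partner MAX. MYC is a known activator of ribosome production. Windows of 250 bases before to 50 bases after RefSeq start sites (GRCh38.p14) were found for 36 of the 42 genes. The motif, which reads the same on both strands, occurred in 14 of these 36 (38.9%), against 13.0% of 9645 tested genes with a window and 7.26% of all 35116 windows. A gene with several windows counted if any held it. The 14 genes were BYSL, DDX21, FBL, GNL3, LTV1, NAT10, NOL6, NOP14, NOP2, PES1, RRP9, UTP18, UTP20 and WDR43. Of them, 4 rose, 2 fell and 8 did not pass, with a median log2 difference of 0.01. Of the 22 genes without the motif, 10 rose, 3 fell and 9 did not pass, with a median of 0.09. Among all tested genes with a window, 35.1% of those with the motif rose and 19.6% fell, against 30.02% and 21.4% of those without it. With 14 and 22 genes, nothing about the motif is read from the members' counts. A match is a description of letters, and binding was not measured. MYC itself was low, at 1.13, 2.40 and 1.70 FPKM in Agrimol B libraries and 2.65, 2.05 and 0.979 FPKM in control libraries. Its groups overlapped (log2 difference -0.06 ± 0.27 SE, adjusted p = 0.874).

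Windows are shown for the genes with the largest rise and the largest fall and for PES1, whose partner BOP1 moved the other way, with the E-box in capitals. The window of UTP6 (chr17:31901659-31901958, minus strand) has none. That of UTP20 (chr12:101279855-101280154, plus strand) has one whose first letter lies 10 bases before the start site. In PES1 (chr22:30591861-30592160, minus strand) its first letter lies 13 bases after the start site.
UTP6: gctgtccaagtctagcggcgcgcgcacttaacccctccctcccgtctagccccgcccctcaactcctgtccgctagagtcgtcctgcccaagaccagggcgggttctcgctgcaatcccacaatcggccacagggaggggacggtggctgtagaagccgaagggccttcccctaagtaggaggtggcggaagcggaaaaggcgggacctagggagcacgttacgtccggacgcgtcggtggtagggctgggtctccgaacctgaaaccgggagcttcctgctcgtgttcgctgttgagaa
UTP20: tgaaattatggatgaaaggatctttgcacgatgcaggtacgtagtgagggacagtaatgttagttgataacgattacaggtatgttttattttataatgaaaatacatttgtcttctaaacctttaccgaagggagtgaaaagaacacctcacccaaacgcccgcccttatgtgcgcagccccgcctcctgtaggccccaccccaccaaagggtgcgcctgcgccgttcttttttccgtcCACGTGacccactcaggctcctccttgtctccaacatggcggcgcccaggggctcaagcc
PES1: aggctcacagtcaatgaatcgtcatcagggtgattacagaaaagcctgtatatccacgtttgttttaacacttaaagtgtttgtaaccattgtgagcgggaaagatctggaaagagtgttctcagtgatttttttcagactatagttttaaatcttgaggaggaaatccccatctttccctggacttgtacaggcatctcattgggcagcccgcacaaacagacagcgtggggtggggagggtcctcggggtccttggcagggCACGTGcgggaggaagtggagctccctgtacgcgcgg

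The E-boxes of the other 4 called genes that carry one are shown with their flanks. Only windows at start sites were searched, so closeness to the start site is set by that choice. RRP9 (chr3:51941884-51941929, minus strand), NOP14 (chr4:2963366-2963411, minus strand) and DDX21 (chr10:68956596-68956641, plus strand) rose, and LTV1 (chr6:143843346-143843387, plus strand) fell. The calls of NOP14, DDX21 and LTV1 were lost when any library was left out. The first letter lies 5 bases before the start site in RRP9, 31 bases before it in DDX21, 15 bases after it in NOP14 and 28 bases after it in LTV1.
RRP9: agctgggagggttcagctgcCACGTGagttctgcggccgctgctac
NOP14: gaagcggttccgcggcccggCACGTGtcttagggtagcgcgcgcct
DDX21: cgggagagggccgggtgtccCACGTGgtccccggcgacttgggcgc
LTV1: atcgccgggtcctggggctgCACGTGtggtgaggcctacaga

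Transcription of ribosomal DNA was represented by 7 genes, of which 3 rose, 2 fell and 2 did not pass. Counts by role, here and below, stand beside 30.6% higher and 21.4% lower over all tested genes. With so few members per role, nothing about a role is read from its counts. The subunits POLR1B and POLR1C and the initiation factor RRN3 rose, while the DNA-binding factor UBTF and the subunit POLR1E fell. UBTF, an HMG-box protein that coats active ribosomal DNA (chromosome 17, 44205033 to 44221626, minus strand, hg38), stood at 40.5, 34.7 and 35.4 FPKM in Agrimol B libraries, against 52.0, 51.2 and 43.1 FPKM in control libraries. Every Agrimol B value was below every control value, and the closest were 40.5 and 43.1 FPKM. The fall was 1.32-fold (log2 difference -0.39 ± 0.09 SE, adjusted p = 0.0144). POLR1B, the second-largest subunit of the polymerase, stood at 21.6, 21.3 and 20.5 FPKM with Agrimol B and 17.3, 16.4 and 16.2 FPKM in control cells (1.27-fold higher, adjusted p = 0.00204). POLR1C, a subunit shared with RNA polymerase III, stood at 17.9, 20.2 and 19.97 FPKM with Agrimol B, against 16.6, 14.9 and 15.5 FPKM in control libraries. It rose 1.24-fold (adjusted p = 0.0132), a call lost with quantile normalization (adjusted p = 0.0526; 0.00947 to 0.0526 over all alternatives).

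RRN3, which brings the polymerase to the promoter, rose to 19.8, 19.6 and 19.99 FPKM with Agrimol B, against 16.2, 16.6 and 16.03 FPKM in control libraries (1.21-fold, adjusted p = 0.00248). Within each group the libraries differed by less than 1 FPKM. POLR1E, a subunit of the dissociable pair of the polymerase, fell 1.18-fold (19.5, 21.0 and 21.6 FPKM with Agrimol B, 24.1, 25.3 and 23.8 FPKM in control cells, adjusted p = 0.0144). POLR1A, the largest subunit, averaged 15.3 ± 0.393 FPKM with Agrimol B and 15.0 ± 0.631 FPKM in control cells (SD, n = 3 libraries each), and its log2 difference had a 95% interval of -0.09 to 0.15. TAF1D, a subunit of the promoter factor SL1, averaged 36.0 ± 3.85 FPKM with Agrimol B and 35.6 ± 2.36 FPKM in control cells, with an interval of -0.20 to 0.23. GENCODE release 29 names 2 pseudogenes after RRN3, and how the authors' counting shared reads with them is not known.

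Of the 4 genes of abundant nucleolar proteins, DDX21 rose, NCL fell, and NPM1 and GNL3 did not pass. NPM1, or nucleophosmin, a nucleolar chaperone, had the highest level of all 42 genes, at 931.88, 898.63 and 903.52 FPKM in Agrimol B libraries and 1202, 939.12 and 1234 FPKM in control libraries. All Agrimol B values were lower, but the second control library lay close to them. The fall of 1.23-fold did not pass (log2 difference -0.29, 95% interval -0.55 to -0.04, adjusted p = 0.0577). Without that control library the log2 difference was -0.42 and it passed (adjusted p = 0.00118; 0.00118 to 0.320 over all alternatives), and it passed as lower with median-ratio scaling. GENCODE names 45 pseudogenes after NPM1, so its value is uncertain for that reason. The same holds, with 1 to 3 named pseudogenes each, for NCL, NOP56, PES1 and LTV1. Other coding genes overlap LTV1 and NOP2 on the same strand, and PES1, BOP1, POLR1C and further members on the opposite strand. How reads of such overlaps were counted is not known.

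NCL, or nucleolin, which binds ribosomal DNA and its transcript, stood at 327.8, 314.8 and 318.6 FPKM with Agrimol B and 389.7, 372.7 and 350.6 FPKM in control cells. The groups were apart and the fall was 1.16-fold (adjusted p = 0.0109), but with quantile normalization the log2 difference of -0.21 became -0.05 and did not pass (adjusted p = 0.358; 0.00337 to 0.358 over all alternatives). DDX21, an RNA helicase of the nucleolus, stood at 128, 126 and 125 FPKM with Agrimol B and 118, 118 and 116 FPKM in control cells. It passed (1.08-fold higher, adjusted p = 0.0272), a call that held under 4 of 13 alternatives and was lost when any library was left out (adjusted p 0.0253 to 0.293 over all alternatives). GNL3, or nucleostemin, a GTPase, averaged 80.1 ± 4.63 FPKM with Agrimol B and 79.6 ± 2.55 FPKM in control cells, and the interval of its log2 difference was -0.12 to 0.14.

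Among the snoRNP proteins, 3 of 5 rose and 0 fell, against 30.6% and 21.4% of all tested genes. DKC1, the pseudouridine synthase dyskerin, rose 1.33-fold (log2 difference 0.41 ± 0.06 SE, adjusted p = 0.00293). Its values were 69.3, 74.5 and 68.3 FPKM with Agrimol B and 49.6, 57.1 and 52.8 FPKM in control cells, which leaves a clear gap. NOP58 and NOP56 are partner scaffold proteins of the box C/D snoRNPs. NOP58 stood at 115, 112 and 110.4 FPKM with Agrimol B, against 87.1, 90.2 and 90.4 FPKM in control cells (1.26-fold higher, adjusted p = 0.000657). NOP56, the most abundant gene of the group, stood at 158.9, 165.9 and 168.7 FPKM with Agrimol B and 169.1, 171.5 and 181.4 FPKM in control cells, all below the control values by a small margin (log2 difference -0.08, 95% interval -0.18 to 0.02, adjusted p = 0.166). With median-ratio scaling it passed as lower (adjusted p = 0.0333; 0.0333 to 0.906 over all alternatives). The methyltransferase of the same particles, FBL (fibrillarin), stood at 111, 146 and 120 FPKM with Agrimol B and 139, 154 and 164 FPKM in control cells. The groups overlapped through the second Agrimol B library (adjusted p = 0.0782), and without it the log2 difference of -0.28 became -0.39 and passed (adjusted p = 0.0155; 0.0155 to 0.196 over all alternatives). It also passed as lower with median-ratio scaling. NOLC1, a chaperone of snoRNPs, rose 1.20-fold, with 87.3, 87.9 and 90.2 FPKM against 73.6, 73.3 and 73.4 FPKM in control libraries (adjusted p = 0.00112).

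Of the 13 small subunit processome genes, 5 rose, 1 fell and 7 did not pass (all tested genes, 30.6% higher and 21.4% lower). UTP6, which belongs to the UTP-B part of the processome (chromosome 17, 31860899 to 31901765, minus strand), stood at 16.9, 15.1 and 17.3 FPKM in Agrimol B libraries, against 8.90, 8.75 and 9.37 FPKM in control libraries. No control library came near (log2 difference 0.80 ± 0.07 SE, adjusted p = 0.000239). UTP20, a very large scaffold protein of the processome (chromosome 12, 101280109 to 101386616, plus strand), stood at 12.7, 11.7 and 12.5 FPKM with Agrimol B and 19.3, 18.8 and 18.7 FPKM in control cells. Here, too, the groups lay far apart, in the other direction (log2 difference -0.58 ± 0.05 SE, adjusted p = 0.000250). UTP3 rose 1.37-fold, with 41.3, 42.6 and 43.0 FPKM against 30.6, 32.6 and 29.5 FPKM in control libraries (adjusted p = 0.000763).

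Smaller rises were seen for the GTPase BMS1 (1.26-fold, adjusted p = 0.00145) and for RRP9, a protein of the U3 snoRNP (1.20-fold, adjusted p = 0.00494). BMS1 has 17 pseudogenes named after it, with the same reservation as for NPM1. NOP14 passed at 1.09-fold (adjusted p = 0.0375), and this call held under 3 of 13 alternatives and was lost when any library was left out (adjusted p 0.0344 to 0.291 over all alternatives). UTP18, the most abundant of these genes, stood at 56.2, 50.9 and 50.4 FPKM with Agrimol B and 54.6, 56.3 and 53.1 FPKM in control cells, with overlapping groups (adjusted p = 0.392). The others that did not pass were WDR43, WDR75, UTP15 and HEATR1, of the UTP-A part that binds the nascent transcript, as well as NOL6 and the RNA acetyltransferase NAT10. Their log2 differences lay between -0.13 and 0.21. NAT10 had 1 high library, at 27.2, 27.2 and 38.9 FPKM with Agrimol B against 29.03, 30.6 and 27.6 FPKM in control cells. NOL6 passed as higher without the first control library (log2 difference 0.29, adjusted p = 0.0207; 0.0207 to 0.721 over all alternatives). WDR75 passed as lower without the same library and with both rescalings (adjusted p 0.0259 to 0.235 over all alternatives).

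Late maturation of the 40S subunit was represented by 5 genes, of which 3 rose, 1 fell and 1 did not pass (all tested genes, 30.6% higher and 21.4% lower). RRP12, which takes part in subunit export, rose most, 1.52-fold. It stood at 20.4, 21.3 and 23.1 FPKM in Agrimol B libraries, against 15.0, 13.8 and 13.8 FPKM in control libraries (log2 difference 0.57 ± 0.06 SE, adjusted p = 0.000691). TSR1, a GTPase-like factor, stood at 67.5, 68.9 and 69.1 FPKM with Agrimol B and 62.0, 61.6 and 60.2 FPKM in control cells (1.12-fold higher, adjusted p = 0.00981, and 0.0619 with median-ratio scaling). NOB1, the endonuclease that makes the final cut of the small subunit RNA, stood at 54.3, 57.5 and 51.8 FPKM with Agrimol B and 49.2, 48.4 and 45.9 FPKM in control cells. Its groups were apart (1.14-fold higher, adjusted p = 0.0281), yet the call held under 7 of 13 alternatives and was lost with both rescalings (adjusted p 0.0243 to 0.112). The libraries whose removal ended it were control replicates 2 and 3 and Agrimol B replicates 1 and 2.

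LTV1 fell 1.09-fold (31.7, 32.6 and 33.0 FPKM with Agrimol B, 34.7, 35.1 and 36.2 FPKM in control cells, adjusted p = 0.0474). This call held under 5 of 13 alternatives and was lost when any library was left out (adjusted p 0.0107 to 0.130 over all alternatives). BYSL, the counterpart of yeast Enp1, varied within both groups, at 26.1, 26.3 and 34.5 FPKM with Agrimol B and 40.7, 36.5 and 27.2 FPKM in control cells. The groups overlapped, and the log2 difference had a 95% interval of -0.67 to 0.17.

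Of the 8 genes of 60S assembly, 2 rose, 3 fell and 3 did not pass (all tested genes, 30.6% higher and 21.4% lower). PES1, BOP1 and WDR12 form the PeBoW complex, which is needed to process the large subunit RNAs, and they moved apart. PES1 stood at 79.6, 79.6 and 88.9 FPKM in Agrimol B libraries, against 60.3, 55.1 and 60.5 FPKM in control libraries (1.41-fold higher, log2 difference 0.49 ± 0.06 SE, adjusted p = 0.00132). BOP1 stood at 36.3, 39.96 and 36.6 FPKM with Agrimol B and 49.2, 49.7 and 48.6 FPKM in control cells (1.31-fold lower, log2 difference -0.38 ± 0.05 SE, adjusted p = 0.00130). The groups did not overlap in either gene, and the directions were opposite. WDR12 averaged 9.63 ± 0.468 FPKM with Agrimol B and 10.6 ± 0.708 FPKM in control cells (adjusted p = 0.1397), and passed as lower with median-ratio scaling (adjusted p = 0.0470) and quantile normalization (adjusted p = 0.0304).

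NOP16, a nucleolar protein of early 60S particles, fell 1.17-fold, with 32.6, 32.2 and 32.9 FPKM against 39.2, 37.6 and 37.8 FPKM in control libraries (adjusted p = 0.00373). The related proteins RRP1 and RRP1B also differed in direction. RRP1B stood at 26.2, 26.9 and 29.4 FPKM with Agrimol B and 32.6, 31.9 and 31.8 FPKM in control cells (1.17-fold lower, adjusted p = 0.0158, and 0.0508 without Agrimol B replicate 2). RRP1 stood at 28.8, 28.9 and 28.8 FPKM with Agrimol B and 26.4, 24.7 and 26.1 FPKM in control cells (1.12-fold higher, adjusted p = 0.0212). Its call held under 6 of 13 alternatives (adjusted p 0.0191 to 0.114) and was lost with both rescalings and when control replicate 2 or any Agrimol B library was left out. NOP2 and RRP8, both methyltransferases of ribosomal RNA, did not pass. Their 95% intervals were -0.12 to 0.11 and -0.24 to 0.21.

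Ratios within a library do not depend on a library's scaling factor, so partners were also compared as ratios of FPKM. The 4 pairs were chosen and oriented after their values were seen, in 3 of them with a gene higher in each Agrimol B library over one lower in each. That choice fixes the direction of the ratio, so the ratios are a description of its size, with no test. PES1 stood at 2.19, 1.99 and 2.43 times the level of BOP1 in Agrimol B libraries, against 1.23, 1.11 and 1.24 times in control libraries. The log2 difference of this ratio was 0.88. POLR1C and POLR1D form a heterodimer found in RNA polymerases I and III. Their ratio was 0.373, 0.431 and 0.455 with Agrimol B and 0.216, 0.180 and 0.286 in control cells. The ratio of POLR1B to POLR1E was 1.11, 1.02 and 0.947 with Agrimol B and 0.719, 0.648 and 0.683 in control cells. That of UTP6 to UTP18, both of UTP-B, was 0.301, 0.297 and 0.344 with Agrimol B and 0.163, 0.155 and 0.176 in control cells.

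**Figure D3:**
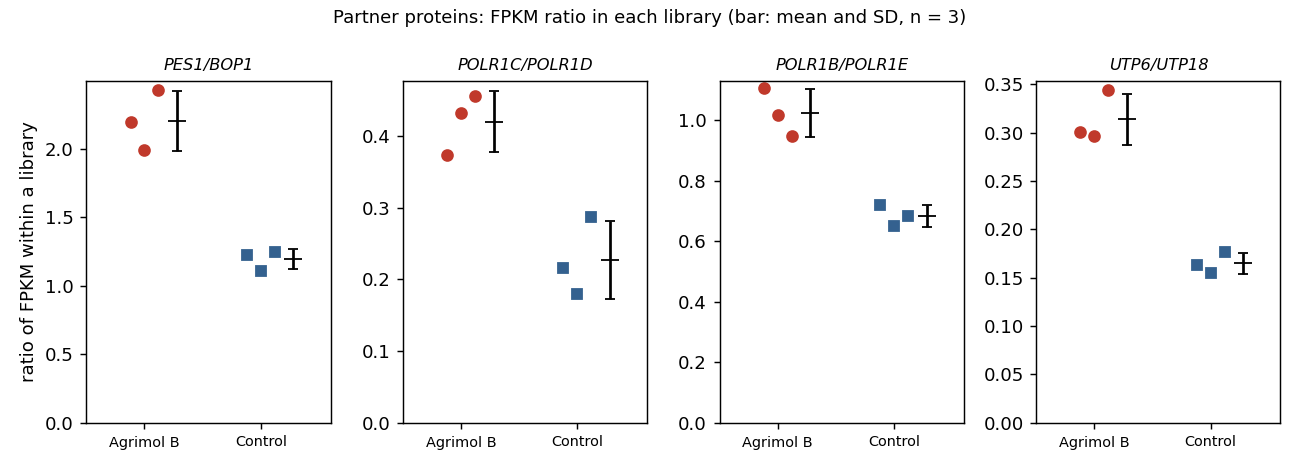
Ratio of FPKM between partner proteins in each library, with Agrimol B left and control right (points are libraries, bars mean ± SD, n = 3 each). For PES1 over BOP1 the mean ratio was 2.20 ± 0.218 with Agrimol B and 1.19 ± 0.0732 in control cells.

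Several of the 42 genes also host small nucleolar RNAs, which guide the modification of ribosomal RNA and are cut from introns. In GENCODE release 29, 9 of the 42 (21.4%) contain at least 1 annotated snoRNA on their own strand, against 1.84% of 12077 tested genes with a match. The hosts were NCL, GNL3, NOP56, NOP58, DKC1, WDR43, TSR1, POLR1C and TAF1D, with 8 snoRNAs in TAF1D. Of these 9, 4 rose, 1 fell and 4 did not pass, and of the other 33, 13 rose, 7 fell and 13 did not pass. Of the 222 tested host genes, 58 rose (26.1%), 48 fell (21.6%) and 116 did not pass, and nothing about hosts is read from the 9 members. The snoRNAs themselves were not analysed here.

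The wider pathway moved in both directions too. In 8 further lists of ribosome production genes, 163 of 164 genes were tested, PWP2 being below the filter. Of these, 64 rose (39.3%) and 28 fell (17.2%), with a median log2 difference of 0.09, to be read against the same 30.6% and 21.4%. This split, too, depended on scaling. With median-ratio scaling, rises such as those of RUVBL2 (adjusted p = 0.110) and UTP11 (adjusted p = 0.184) were lost. TCOF1 (adjusted p = 0.0107) and NHP2 (adjusted p = 0.0200) then passed as lower, against 25.4% higher and 25.9% lower of all tested genes. The larger share of rises is therefore not read as a trait of the pathway. Of 14 other subunits and factors of RNA polymerase I, 3 rose and 7 fell. The list is not particular to this polymerase, since it takes in POLR2E, POLR2F, POLR2H, POLR2K, POLR2L and TBP. Of these, POLR2E, POLR2H and POLR2L were among the falls. TBP was among the rises, a call that held under 5 of 13 alternatives (adjusted p 0.0060 to 0.114). TAF1A, another SL1 subunit, stood at 10.9, 11.003 and 9.61 FPKM with Agrimol B and 6.93, 5.41 and 5.60 FPKM in control cells (1.75-fold higher, adjusted p = 0.00172). POLR1G (CD3EAP in the deposited table), the partner of POLR1E, stood at 4.28, 4.18 and 4.09 FPKM with Agrimol B and 6.58, 6.77 and 6.85 FPKM in control cells (1.61-fold lower, adjusted p = 0.000264). POLR1D stood at 47.9, 46.9 and 43.9 FPKM with Agrimol B and 76.9, 82.9 and 54.1 FPKM in control cells (1.54-fold lower, adjusted p = 0.0212). Leaving out control replicate 1 or 2, or Agrimol B replicate 2 or 3, ended this call (adjusted p 0.000973 to 0.0660 over all alternatives).

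Of 10 regulators of ribosomal DNA transcription, 3 rose and 2 fell. The counts of this and the following lists stand beside the same 30.6% higher and 21.4% lower over all tested genes. Like the total above, they were taken without rescaling. CAVIN1, a caveolar protein also described as a release factor of RNA polymerase I, fell 1.98-fold, to 79.0, 83.3 and 86.0 FPKM against 166, 164 and 162 FPKM in control libraries (adjusted p = 3.33e-05). NOL11, a processome protein, fell 1.49-fold and the histone demethylase PHF8 rose 1.46-fold. Of 13 other snoRNP proteins and assembly factors, 5 rose and 2 fell, GAR1 1.28-fold, ZNHIT3 1.26-fold and PIH1D1 1.25-fold higher, the last call holding under 5 of 13 alternatives (adjusted p 0.0230 to 0.114). Of 30 other processome proteins, 14 rose and 3 fell, with NGDN, UTP25 and DDX49 1.52-fold, 1.51-fold and 1.45-fold higher. NGDN lost its call when control replicate 2 or 3, or Agrimol B replicate 1 or 3, was left out (adjusted p 0.00365 to 0.0581 over all alternatives). Of 7 other late 40S factors, 5 rose and 1 fell, with the kinases RIOK3 and RIOK1 1.64-fold and 1.33-fold and the RNA-binding PNO1 1.21-fold higher.

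Of 52 other 60S factors, 22 rose (42.3%) and 10 fell (19.2%), against 30.6% and 21.4% of all tested genes. ZNF622, whose yeast counterpart Rei1 acts on cytoplasmic 60S particles, stood at 95.9, 97.3 and 94.4 FPKM with Agrimol B and 44.8, 46.7 and 46.5 FPKM in control cells (2.08-fold higher, adjusted p = 1.74e-05). SBDS, which helps to release EIF6 from the 60S subunit, rose 1.67-fold and the export adaptor NMD3 1.65-fold. Of 16 genes of the RNA exosome and its cofactors, 7 rose and 1 fell, with EXOSC7, EXOSC6 and the nuclease DIS3 1.497-fold, 1.48-fold and 1.41-fold higher. Of 21 genes of RNA polymerase III, which makes the 5S ribosomal RNA and tRNAs, 5 rose, 2 fell and 14 did not pass. POLR3D stood at 24.8, 25.2 and 24.2 FPKM with Agrimol B and 11.2, 10.7 and 10.01 FPKM in control cells (2.33-fold higher, adjusted p = 3.91e-05). POLR3C rose 1.88-fold and POLR3A, the largest subunit, 1.53-fold. In bulk RNA, fewer cells of a kind and less RNA per cell cannot be told apart, which holds for every gene named here.

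**Figure D4:**
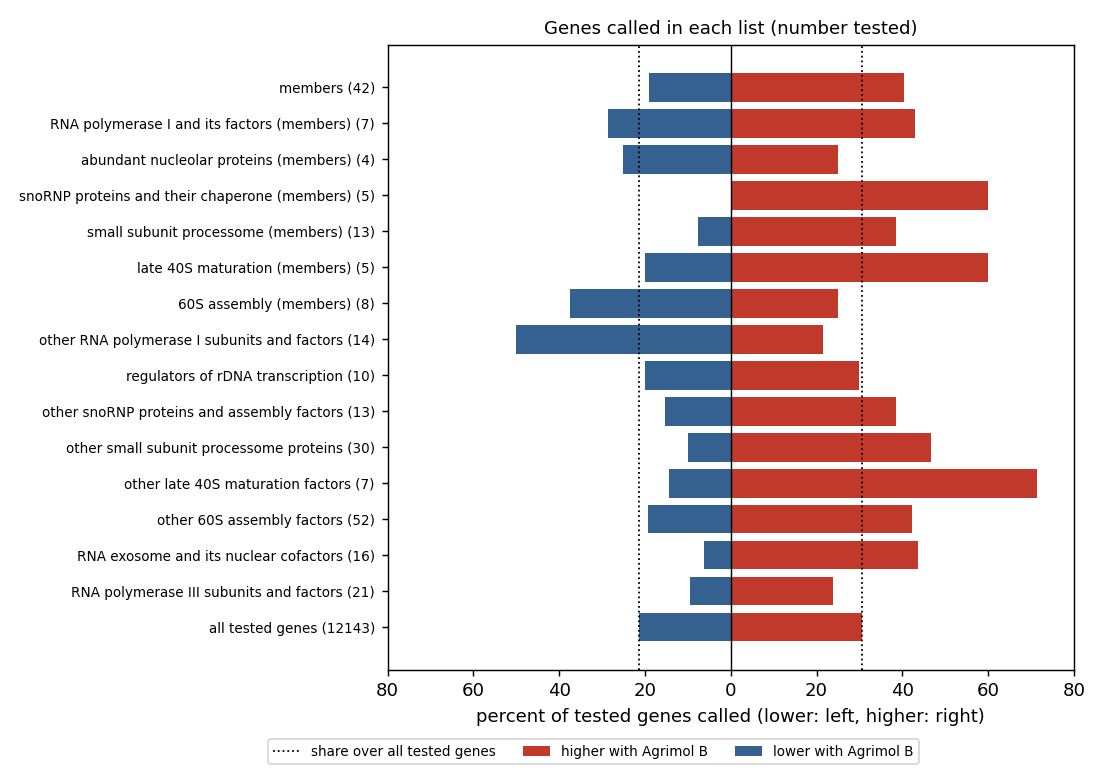
Percent of tested genes called lower (left) and higher (right) with Agrimol B in each list, with the number tested in brackets and dotted lines at the shares over all tested genes, 21.4% and 30.6%. Each list but the snoRNP members holds calls in both directions.

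The summed level of the 42 genes was 3049, 3015 and 3037 FPKM in Agrimol B libraries and 3322, 3046 and 3316 FPKM in control libraries. NPM1 made up 29.7% to 30.6% of the sum with Agrimol B and 30.8% to 37.2% in control cells. Without NPM1 the sums were 2117, 2117 and 2134 FPKM with Agrimol B, against 2120, 2107 and 2082 FPKM in control cells, which overlapped without rescaling. Median-ratio scaling divides Agrimol B libraries by 1.025 to 1.032 and control libraries by 0.977 to 0.984. It thus lowers the former sums and raises the latter. The overlap is therefore not read as a lack of change.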

How the data were processed

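RNA of 3 Agrimol B and 3 control libraries of HOS cells was measured. The authors deposited 1 table of FPKM values with 1 column per library. cutadapt, Trimmomatic, FastQC, HISAT and hg38 are named, without roles or versions, per the submitters' processing notes. The FPKM program, its annotation, use of strand and gene filter were not stated in the labels used here. The control columns carry the letters of the sample descriptions in the other order and were matched by number.

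Values were taken as log2(FPKM + 1), a scale that understates changes of low genes. Genes with a mean of 1 FPKM or more (12143 of 16376) were fitted with limma 3.58.1 (R 4.3.3; a group term, variance trend, two-sided, Benjamini-Hochberg adjustment, threshold 0.05). A fold is the ratio of group means of FPKM. Relative depth came from ratios of genes under 0.05 FPKM, of which 6.15% to 10.8% lay within 0.01 (log2) of 1 value. On simulated libraries, 94% of 2-fold and 83% of 1.5-fold changes were recovered, and 13 of 190 calls were false. There, 100 genes changed by each size among 12143, all of them away from the lowest levels. In the data 52% of genes were called, and most members differed by less than 1.5-fold. These rates therefore do not describe the calls made here. Python 3.11.15 with pandas 2.3.3 and matplotlib 3.10.9 did the rest.

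The members and lists were chosen with earlier results of these data known. Named with every library's value were up to 3 called members per role with the largest differences, and the most abundant. Values of further members were added after they were seen. Up to 3 called genes of each other list and MYC were named. Coordinates are from GENCODE release 29, and promoters from RefSeq. Same-numbered libraries did not deviate together, so no block was used.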

Additional observations from a re-analysis of the deposited data

How the results depend on the processing

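The 13 alternatives were another pseudocount, no filter or a filter of 5 FPKM, median-ratio scaling, quantile normalization, no variance trend, each library left out, and a replicate block. The count of all genes changed, of members changed and of other pathway genes changed stayed within 1.5 times the reported count under each. These counts take rises and falls together, and the split between them depended on scaling. With median-ratio scaling 13 members were lower in place of 8, and the median difference of the members was -0.0452 in place of 0.02. With 1 library left out that median ran from 0.0079 (without control replicate 2) to 0.0664 (without control replicate 1). Of 869 values of single genes under the alternatives, 770 kept direction and side of the threshold, 60 lost the call and 12 gained one. The other 27 changed sign, in 8 genes that passed under no setting. With median-ratio scaling these were GNL3 (-0.0591), WDR43 (-0.0623), POLR1A (-0.0363) and TAF1D (-0.0541), and with quantile normalization the same genes (-0.0131, -0.0272, -0.0555 and -0.0352). With 1 library left out the log2 differences ran from -0.0365 to 0.0445 for GNL3, -0.0155 to 0.0192 for WDR43, -0.0925 to 0.159 for NAT10, -0.0442 to 0.0244 for NOP2, -0.0755 to 0.0695 for RRP8, -0.0022 to 0.0546 for POLR1A, -0.0697 to 0.0752 for TAF1D and -0.309 to 0.133 for MYC. Same-numbered libraries correlated at 0.04, -0.01 and -0.01 in their deviations from group means. With the replicate block 22 members were called in place of 25, without DDX21, NOP14, LTV1 and RRP1 and with UTP15 (adjusted p = 0.0390). The cause of these shifts was not tested. Depth is unknown, so counting error cannot be given.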
